A study of Mus musculus with 64 samples.

Results

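The levels of 10 genes of the Notch pathway and the Id family were followed through 32 groups of microdissected tissue from the embryonic mouse inner ear and its surroundings. They were the receptors Notch1 and Notch2, the ligand Jag1, the glycosyltransferase Lfng, the transcriptional targets Hes1, Hes5, Hey1 and Hey2, and Id1 and Id2. Every probe set (a group of short probes on the array that reads 1 transcript region) annotated to 1 of these 10 genes was taken, which gave 17 of the 20380 probe sets with a single gene symbol, from 10 of 12393 genes. Of the 17, 14 passed the filter on low values and were tested among 14014 probe sets. The 3 that failed it were the only Hes1 probe set and 1 probe set each of Jag1 and Lfng.

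All tissue came from CBA/J embryos and no group carried a genetic change or a treatment. Inner ear epithelium was dissected as the otic placode at E9, the otic vesicle at E9.5 and E10, the cochlea at 10 stages from E10.5 to E15, the vestibular organ (without the endolymphatic duct) at 4 stages from E10.5 to E12, and the saccule, and the utricle joined with the ampullae, at 6 stages from E12.5 to E15. The tissue around the ear was collected at E9, as a mixture of the stages E9.5 to E10.5, and as a mixture of the stages E11 to E15. Each of the 29 inner ear groups and 3 surrounding groups had 2 arrays, each from its own pool of tissues from different litters, so the p-values measure the spread between such pools. In 18 of 22 pairs of ear tissues of 1 stage, arrays with the same replicate number deviated together (correlation over 0.1). Pools of different tissues may therefore not be independent, and the main fit does not model this. In such bulk tissue, fewer cells of a type and less RNA per cell cannot be told apart.

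Notch receptors on one cell bind ligands such as Jag1 on its neighbour, are cut, and release an intracellular domain that enters the nucleus, joins the DNA-binding protein Rbpj and switches on Hes and Hey genes. The Hes and Hey proteins are repressors of the basic helix-loop-helix family, and in the ear they hold back Atoh1, the factor that starts hair cell formation. Id proteins have the helix-loop-helix but cannot bind DNA; they capture the E proteins that Atoh1 needs as partners and are classic targets of BMP signalling. In the inner ear Notch signalling is known both for setting out the prosensory patches and, later, for sorting hair cells from supporting cells.

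The 64 arrays had median deposited signals of 64.7 to 108, and 5.43 to 12.0 percent of the values on an array lay at the lowest possible signal, 10. Pools held 6 to 17 tissues where the labels number them, and the correlation of the 2 arrays of a group over probe sets was 0.942 to 0.991. Markers of inner ear epithelium (11 genes measured, including Epcam, Oc90 and Pax2) summed to 4709 to 28101 on the inner ear arrays, against 785 to 1323 on the surrounding tissue arrays. Mesenchymal markers (12 genes) were not absent from the inner ear arrays, where they summed to 934 to 9005, against 3739 to 18495 on the surrounding tissue arrays. A shorter dispase incubation was used up to E10.5 and a longer one from E11, so stage and incubation cannot be told apart across that boundary. The signals below are quantile-normalized array signals in arbitrary units, with replicate 1 given before replicate 2, and signals of different probe sets are not on a common scale. Changes are log2 differences from limma on log2(signal + 16), which understates the change of low signals, with Benjamini-Hochberg adjusted p over all 14014 probe sets. A probe set was called when the adjusted p was below 0.05 and the change at least 1 log2. A trend is the slope of a line through the stage means times the days it spans.

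For the targets, the promoter sequence shows where the nuclear end of the pathway could attach. The motif GTGGGAA, the core of sites bound by Rbpj, was searched on both strands of the RefSeq promoters (GRCm38.p6; 250 bases before to 50 bases after the gene start), a set that held 7 of the 10 genes; Hes1, Hey1 and Id1 were not among them. Hes5 and Hey2 each held 2 copies and Lfng held 1. Neither Notch1, Notch2, Jag1 nor Id2 had a copy in the window. Of all 32851 promoters in the set, 6.38 percent held at least 1 copy and 0.256 percent held at least 2. The promoters of the pair with 2 copies follow on the strand of the gene, 5′ to 3′, at chr4:154960673-154960972 (plus strand) for Hes5 and chr10:30842734-30843033 (minus strand) for Hey2, then the stretch of the Lfng promoter at chr5:140607221-140607249 (plus strand). Capitals mark the motif, which reads TTCCCAC where it lies on the opposite strand.
Hes5: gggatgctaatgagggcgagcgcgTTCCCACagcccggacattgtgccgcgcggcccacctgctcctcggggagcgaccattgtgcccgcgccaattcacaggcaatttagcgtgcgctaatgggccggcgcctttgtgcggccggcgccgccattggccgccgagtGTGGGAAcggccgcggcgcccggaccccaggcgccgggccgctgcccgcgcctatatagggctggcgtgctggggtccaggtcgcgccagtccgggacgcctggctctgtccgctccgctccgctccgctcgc
Hey2: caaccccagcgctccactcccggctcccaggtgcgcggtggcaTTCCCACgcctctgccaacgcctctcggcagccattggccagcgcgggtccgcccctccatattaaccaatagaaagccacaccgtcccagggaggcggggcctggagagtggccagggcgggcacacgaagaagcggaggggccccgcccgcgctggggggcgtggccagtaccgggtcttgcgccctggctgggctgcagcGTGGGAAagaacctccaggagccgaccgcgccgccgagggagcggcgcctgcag
Lfng: ccgtatcccacGTGGGAAggagagatctc
The first base of the motif lay 226 and 83 bases before the start site used in the promoter set for Hes5, 207 and 4 bases before that of Hey2 and 109 bases before that of Lfng. The RefSeq gene record of Hes5 begins further upstream, at position 154960626 of chromosome 4, so both Hes5 copies lie inside that record. A match describes the letters in the window and is no evidence of binding there.

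Across the 14 tested probe sets, 48 calls were made over the 18 comparisons, and the receptors, Hes5, Hey1, Hey2 and the Id genes held all of them. Counted in probe sets, between inner ear and surrounding tissue 1 was called higher and 1 lower at E9, 2 higher and 1 lower at E9.5 to E10.5, and 4 higher and 1 lower at E11 to E15, where 6.04, 8.09 and 15.5 percent of all probe sets were called. The cochlea against the vestibular organ gave 1 higher (background 1.31 percent). Against the utricle and ampullae it gave 1 higher and 1 lower (2.9 percent), and against the saccule 2 higher (3.78 percent). In the saccule against the utricle and ampullae 4 were lower, at a background of 2.53 percent. None of the 14 was called between the E10 vesicle and the E9 placode (5.42 percent) or in the vestibular trend (4.07 percent). At an unadjusted limma p under 0.05, with no fold threshold, 5 and 2 of the 14 passed. The share of all probe sets at that looser threshold was not worked out, so these counts have no background. With the values as deposited, without normalization, the median of all probe sets moved to 0.35, 0.34 and 0.14 in the 3 windows against surrounding tissue, -0.26 for cochlea against vestibular organ, 0.20 for the whole cochlear trend and 0.12 for the vestibular trend. The share of higher calls among all calls was then 88.8, 76 and 67.6 percent in the 3 windows, against 48.7, 45 and 53.9 percent after normalization. For the cochlea against the vestibular organ it was 12.8 against 41.5 percent, for the cochlear trends from E10.5 to E15 and to E12 it was 61.9 against 48.8 and 63.1 against 52.5 percent, and for the vestibular trend 68.3 against 51.9 percent.

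Over time, 2 probe sets rose and 2 fell along the cochlea from E10.5 to E15 (background 15.5 percent), 1 rose from E10.5 to E12 (7.39 percent), and 3 rose and 1 fell from E12.5 to E15 (6.17 percent). In the utricle and ampullae 2 rose and 1 fell (7.59 percent), and in the saccule 1 rose and 2 fell (7.08 percent). The trends themselves differed between cochlea and vestibular organ for 1 probe set (0.842 percent), between cochlea and utricle for 4 (4.05 percent) and between cochlea and saccule for 5 (4.84 percent). The median change of the 14 was largest for cochlea against saccule, at 0.46 against 0.0055 over all probe sets tested, and next for saccule against utricle, at -0.32 against 0.0068; in the other comparisons it lay between -0.32 and 0.20, against -0.033 to 0.021 over all.

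**Figure D1:**
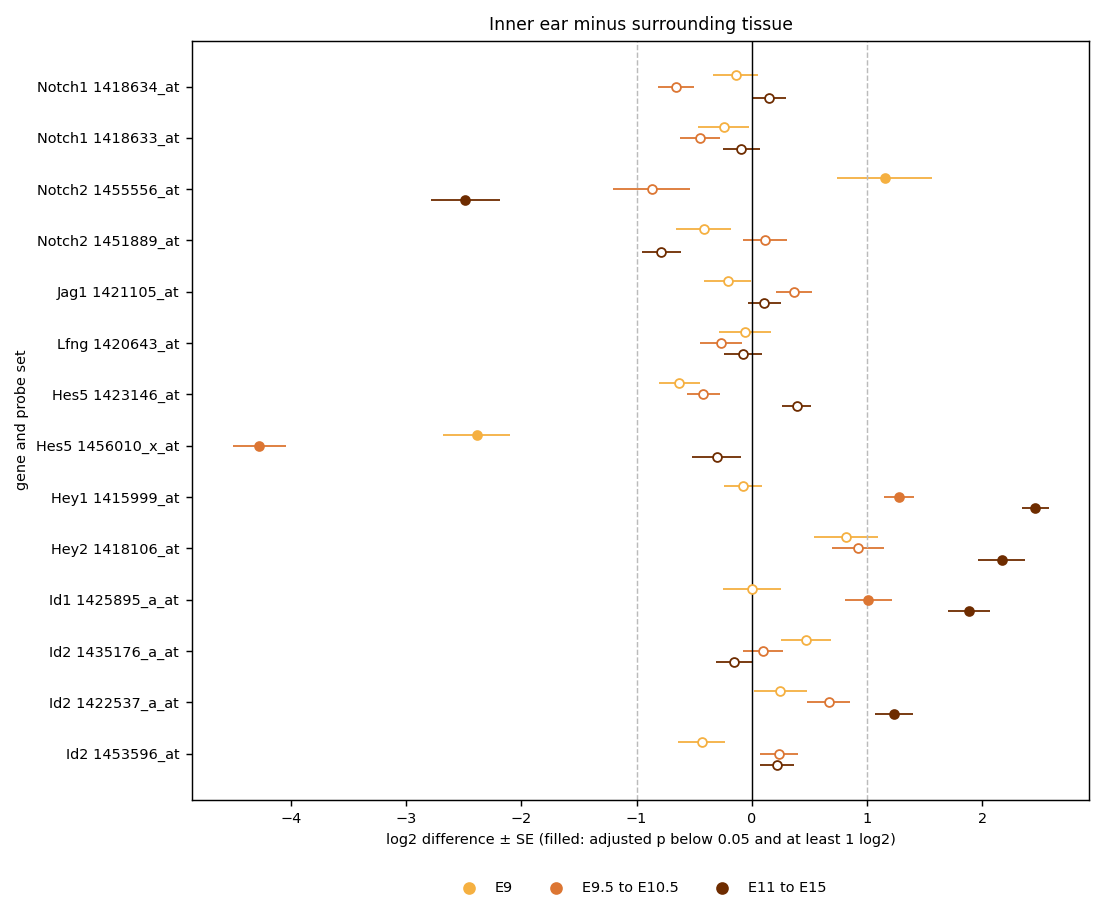
Log2 difference between inner ear and surrounding tissue for the 14 tested probe sets (x axis, difference with standard error bars; filled points were called, dashed lines mark 1 log2) in 3 windows of stages, shown in 3 colours. Hey1 and Hey2 lie furthest right at E11 to E15, at 2.46 and 2.17, and Hes5 probe set 1456010_x_at lies furthest left at E9.5 to E10.5, at -4.28.

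Among the receptors, Notch1 rose in the cochlea. Its brighter probe set, 1418634_at, had its lowest signals in the placode, 136 and 99.8, and its highest in the E15 cochlea, 551 and 401. In the cochlea it measured 191 and 146 at E10.5, 165 and 168 at E12, 299 and 369 at E13.5 and 382 and 379 at E14.5, so the stages from E13.5 on lay above all those up to E13. The fitted rise from E10.5 to E15 was 2.72-fold (log2 1.45, SE 0.14, adjusted p = 1.55e-11), and 1.40 log2 over E11 to E15 alone. The second Notch1 probe set, 1418633_at, followed it at r = 0.845 over the 29 inner ear group means, which share tissues and litters, but its cochlear trend of 0.88 was under the fold threshold; with the values as deposited it was called at 1.13, and with a pseudocount of 1 at 1.06. Summed markers of inner ear epithelium (11 genes, none at the floor on both arrays of either stage) were 27702 and 25211 in the E15 cochlea against 8200.0 and 7729 at E10.5. Those of mesenchyme (12 genes, of which Tbx18 was at the floor on both arrays of both stages) were 8169 and 9005 against 2053 and 959. Their part in the Notch1 rise was not tested.

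From E12.5 to E15 the Notch1 trend was 1.03 in the cochlea (SE 0.17, adjusted p = 6.81e-06), 0.58 in the utricle and ampullae and 0.26 in the saccule. The cochlear call was a narrow one: it fell under 1 without the E12.5, E13 or E15 arrays (0.80, 0.99 and 0.79), without replicate 1 of the E12.5 or E15 cochlea (0.89 and 0.87) and without replicate 2 of the E14 cochlea (0.996). The difference between the cochlear and the utricular trend did not pass the test (log2 0.45, SE 0.23, adjusted p = 0.245), and that between the cochlear and the saccular trend stayed under the fold threshold (log2 0.77, SE 0.23, adjusted p = 0.0268). At all 4 stages from E10.5 to E12 both cochlear arrays of 1418634_at were below both vestibular arrays, with a mean difference of -0.33 (SE 0.098, adjusted p = 0.0124), under the fold threshold. By 1418633_at the cochlear and vestibular arrays overlapped at 4 of 4 stages, with a mean difference of 0.0058 (SE 0.11, adjusted p = 0.978).

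Notch2 was lower in the ear than in the late surrounding tissue, by 1 of its 2 probe sets. Probe set 1455556_at measured 75.7, 239.9 and 882 (lowest, median and highest) over the 20 cochlear arrays, 114, 164 and 289 over the 12 of saccule and 228, 334 and 1458 over the 12 of utricle and ampullae. In surrounding tissue it measured 121 and 74.9 at E9, 295 and 313 at E9.5 to E10.5 and 2114 and 968 at E11 to E15. The E11 to E15 arrays of surrounding tissue were above every ear group of those stages except the E12.5 utricle and ampullae, at 1458 and 618. At E11 to E15 Notch2 was 5.61-fold lower in the ear (log2 -2.49, SE 0.30, adjusted p = 5.53e-09). At E9 it was 2.22-fold higher in the ear, with 307 and 174 in the placode (log2 1.15, SE 0.41, adjusted p = 0.0404), a call lost without replicate 1 of the placode (log2 0.77, adjusted p = 0.357) or without either E9 array of surrounding tissue (log2 1.45, adjusted p = 0.0561 and log2 0.86, adjusted p = 0.291). Whether the 2 windows differ from each other was not tested. The other probe set, 1451889_at, showed neither difference past the fold threshold (-0.42 at E9 and -0.79 at E11 to E15), and the pair correlated at only 0.135 over the 29 group means.

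Within the ear, Notch2 by the same probe set was below the utricle in the saccule at 6 of 6 stages, with no overlap of arrays, with a mean difference of -1.21 (SE 0.17, adjusted p = 2.59e-07). In the cochlea it rose to 376 and 882 at E15, against 75.7 and 87.1 at E10.5 (log2 2.21, SE 0.29, adjusted p = 3.28e-08 for the trend over all 10 stages, 1.86 over E11 to E15 alone). Mesenchymal markers moved in the same direction in the same tissue, with sums of 8169 and 9005 at E15 against 2053 and 959 at E10.5. They did so in surrounding tissue, with 18495 and 16791 at E11 to E15 against 4055 and 3739 at E9. At E12.5 they summed to 4282 and 3734 in the cochlea and 3987 and 3247 in the utricle, where Notch2 differed by -2.03 log2, cochlea minus utricle. Of the 12 genes, Tbx18 was at the floor on both arrays at E10.5 and E15 of the cochlea. Col1a1 and Tbx18 were so in the E12.5 utricle, and Dcn at E9 of surrounding tissue. The part of the mesenchymal markers in the result was not tested. Between E9 and the E11 to E15 mixture, Notch2 in surrounding tissue rose 13-fold (log2 3.70, SE 0.41, adjusted p = 1.91e-09), 1 of 4 probe sets called in that comparison (1 higher and 3 lower), where 20.8 percent of all probe sets were called.

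The late trends of Notch2 went opposite ways, 1.10 in the cochlea (SE 0.35, adjusted p = 0.0175) and -1.01 in the utricle and ampullae (SE 0.35, adjusted p = 0.0242), and the difference between them passed the test (log2 2.12, SE 0.50, adjusted p = 0.00483). Neither trend held under all alternatives. The utricular call was lost with the values as deposited (-0.91), with a pseudocount of 64 (-0.93) and with only the groups compared in the fit (log2 -1.01, adjusted p = 0.0848). Without the E12.5 arrays the utricular trend was 0.0061 and without replicate 1 of the E12.5 utricle it was -0.58; it was -0.84 without the E14.5 arrays, and between -0.98 and -0.92 without replicate 2 of the E13, E13.5, E14 or E14.5 utricle or replicate 1 of the E15 utricle. The cochlear trend was 0.57 without the E15 arrays, 0.68 without replicate 2 of the E15 cochlea, 0.93 without the E12.5 arrays and 0.98 with a pseudocount of 64, and lost its adjusted p without either E12.5 cochlear array (0.0624 and 0.0534). The difference of the trends was 0.93 without E12.5, 1.78 without E15, 1.69 without replicate 2 of the E15 cochlea and 1.68 without replicate 1 of the E12.5 utricle, none of them called.

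**Figure D2:**
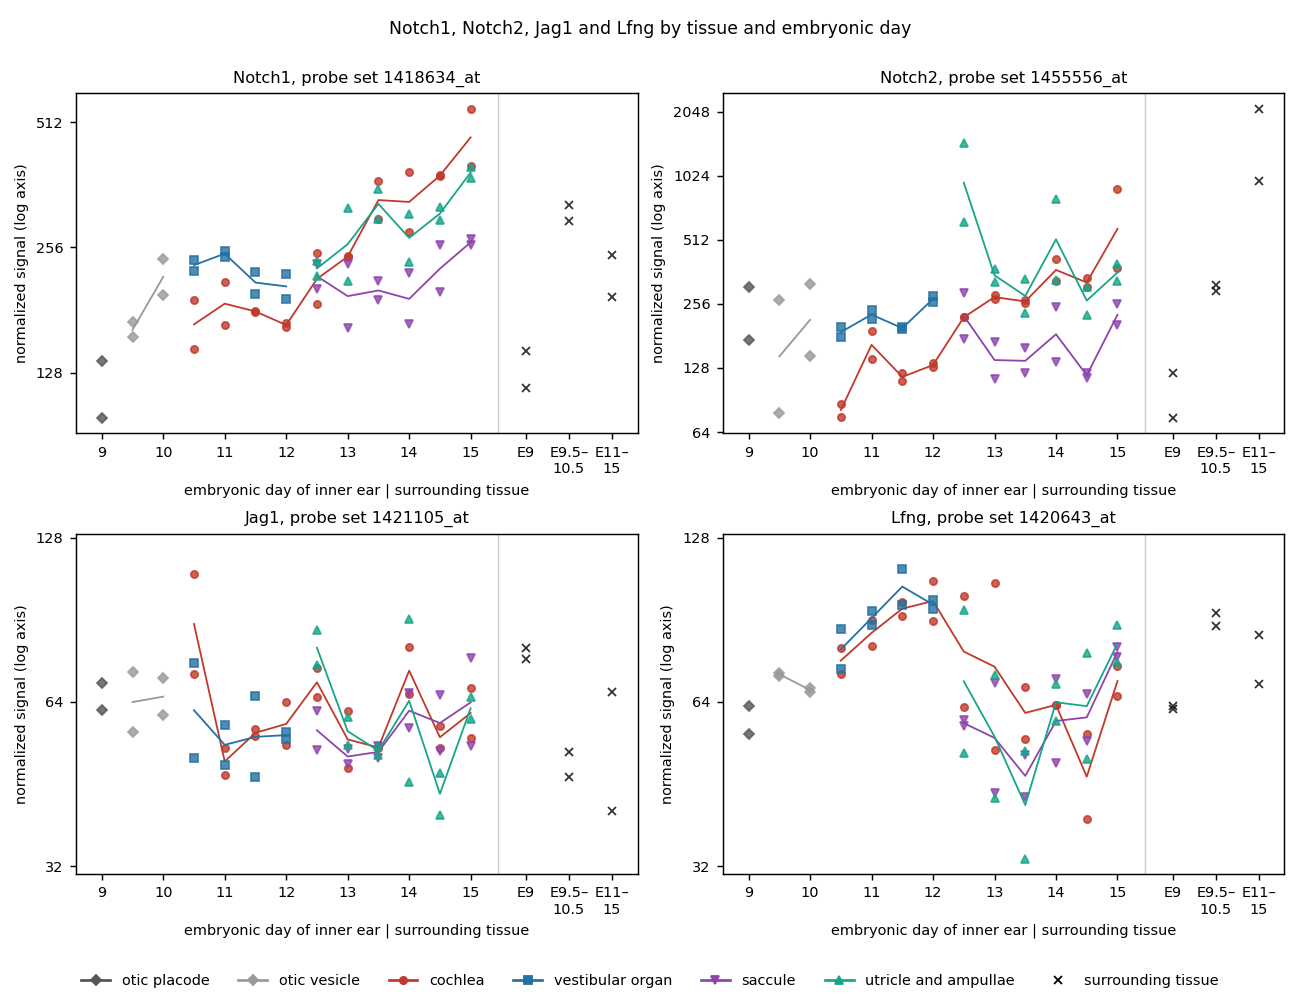
Normalized signal (log y axis) of 1 probe set each of Notch1, Notch2, Jag1 and Lfng against embryonic day, with the surrounding tissue to the right of the grey line. Points are arrays and lines join the geometric means of the 2 arrays per stage. Notch1 ends at 551 and 401 in the E15 cochlea, Notch2 stands out in late surrounding tissue at 2114 and 968, and Jag1 and Lfng stay between 33.0 and 112.

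The ligand Jag1, which marks the prosensory patches, and Lfng, which adds sugars to Notch and changes its response to ligands, had low signals and no call in any of the 18 comparisons. Jag1 probe set 1421105_at lay between 39.7 and 110 on all 64 arrays, against a normalized array median of 87.5, and reached that median on 2 arrays. Its highest signal, in the E10.5 cochlea, stood beside a replicate of 72.1. Lfng probe set 1420643_at lay between 33.0 and 112, with the vestibular organ at E11.5 (112 and 96.5) and the cochlea at E12 (107 and 90.1) at the top of its order. Along the cochlea its trend was -0.54 (SE 0.16, adjusted p = 0.00394), below the fold threshold. For both probe sets, all 31 pairs of neighbouring groups in the order of levels overlapped, a count with no background over all probe sets. The second probe sets of both genes failed the filter, at 10 to 41.04 for Jag1 1421106_at and 10 to 24.4 for Lfng 1449943_at, the Lfng one being at the floor on 23 arrays, and they did not track the first ones (r = 0.037 and -0.30 over the 29 group means). Jag1 by 1421105_at measured 47.1, 57.4 and 109.7 (lowest, median and highest) in the cochlea, 49.2, 53.1 and 76.9 in the saccule, 39.7, 56.5 and 90.6 in the utricle and ampullae, 46.6, 55.6 and 75.5 in the vestibular organ and 40.3, 59.3 and 80.2 in surrounding tissue. Lfng by 1420643_at measured 39.0, 73.3 and 107, 42.9, 58.5 and 80.8, 33.0, 64.1 and 94.4, 73.5, 94.2 and 112 and 62.0, 77.0 and 93.2 in the same 5 tissues. The ranges of the tissues overlapped for both, at signals mostly under the array median, where small differences are hard to resolve.

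Hes1, a repressor that many tissues use as a Notch target, could not be followed. Its only probe set, 1418102_at, lay between 10 and 36.8 with a median of 23.0, under the array median on every array, and was not tested.

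Hey2 was on average higher in the cochlea than in the vestibular organ, the saccule, or the utricle and ampullae. In the cochlea its signal was 275 and 216 at E10.5, 403 and 352 at E11, 573 and 577 at E11.5 and 604 and 547 at E12. The vestibular organ at the same 4 stages had 45.3 and 80.5, 57.5 and 89.8, 69.4 and 41.8, and 56.6 and 36.3. No vestibular array came near a cochlear one: the mean difference was 5.9-fold (log2 2.56, SE 0.14, adjusted p = 1.8e-17) and it was larger at each stage than at the one before, at 1.76, 2.15, 3.07 and 3.26 log2. The cochlear rise from E10.5 to E12 was called (log2 1.24, SE 0.26, adjusted p = 0.000526) and its difference from the vestibular trend of -0.39 passed the test (log2 1.63, SE 0.37, adjusted p = 0.0155). Both calls were lost without the E10.5 arrays, which left 0.59 for the rise and 1.11 for the difference. The difference also lost its call without the E12 arrays (1.32), without replicate 2 of the E10.5 cochlea (1.48), replicate 1 of the E12 cochlea (1.57), or replicate 2 of the E10.5 or E12 vestibular organ (1.33 and 1.42).

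From E12.5 the tissues converged. Cochlear Hey2 measured 521 and 561 at E12.5, 462 and 665 at E13, 549 and 595 at E13.5, 336 and 281 at E14, 439 and 495 at E14.5 and 341 and 244 at E15. In the saccule the same stages gave 84.5 and 85.4, 94.9 and 99.8, 156 and 128, 132 and 196, 249.7 and 211, and 333 and 429. In the utricle and ampullae they gave 14.7 and 20.2, 44.6 and 47.1, 109.9 and 92.8, 50.5 and 123, 193 and 181, and 254 and 225. The cochlear arrays were above those of both other tissues at 5 of 6 stages and overlapped with both at E15.

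The mean difference over the 6 stages was 4.41-fold against the utricle (log2 2.14, SE 0.11, adjusted p = 6.82e-19) and 2.57-fold against the saccule (log2 1.36, SE 0.11, adjusted p = 6.37e-13). By stage, the cochlea exceeded the utricle by 4.06 log2 at E12.5, 3.21 at E13, 2.33 at E13.5, 1.75 at E14, 1.25 at E14.5 and 0.26 at E15. Hey2 rose in the utricle and ampullae (log2 2.79, SE 0.23, adjusted p = 4.84e-12) and in the saccule (log2 1.91, SE 0.23, adjusted p = 3.67e-08), whereas the cochlear trend of -0.85 was under the fold threshold (SE 0.23, adjusted p = 0.00638); it was called without the E14.5 arrays (-1.05) and without replicate 1 of the E15 cochlea (-1.01). The cochlear trend differed from the utricular one by -3.64 (SE 0.33, adjusted p = 4.81e-10) and from the saccular one by -2.75 (SE 0.33, adjusted p = 1.29e-07); without the E15 arrays the second was -1.78, still called. The saccule was above the utricle at 6 of 6 stages without overlap, by a mean of 0.78, under the fold threshold.

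Hair cell markers (6 genes, among them Atoh1, Pou4f3 and Myo7a) rose with Hey2 in the saccule and utricle. They also rose in the cochlea, where Hey2 did not. Their sum ranged from 255 to 953 over the 20 cochlear arrays, with 953 and 540 at E15 against 312 and 374 at E12.5. In the saccule it was 4875 and 5863 at E15 against 499.5 and 396 at E12.5, and in the utricle and ampullae 3782 and 2839 against 381 and 359.8 at those stages. Gfi1 was at the floor on both arrays of the E12.5 cochlea, and no gene of the list was at the floor on both arrays of those saccular or utricular groups. Atoh1 itself rose in all 3 tissues, by 2.24 in the cochlea, 1.997 in the saccule and 2.21 in the utricle. Neuronal markers (8 genes) summed to 6644 and 7111 in the saccule at E15 against 4161 and 2398 at E12.5. At the same stages they summed to 6265 and 6139 against 2624 and 3857 in the utricle and ampullae. In the cochlea they summed to 2875 and 2614 against 2705 and 1655. The part of both marker lists in the Hey2 values was not tested. Against surrounding tissue Hey2 was 4.49-fold higher in the ear at E11 to E15, where the surrounding arrays measured 29.5 and 27.3 (log2 2.17, SE 0.20, adjusted p = 9.65e-12). At E9 and at E9.5 to E10.5 the difference was under the fold threshold (0.82 and 0.92), with the placode at 114 and 78.4 against 46.4 and 47.3 in surrounding tissue; it was called in both windows with the values as deposited (1.17 and 1.18), also at E9 without replicate 2 of the placode (1.05) and in the second window without replicate 2 of the E10 vesicle (1.11), without replicate 1 of the surrounding tissue (1.12) or with a pseudocount of 1 (1.07).

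**Figure D3:**
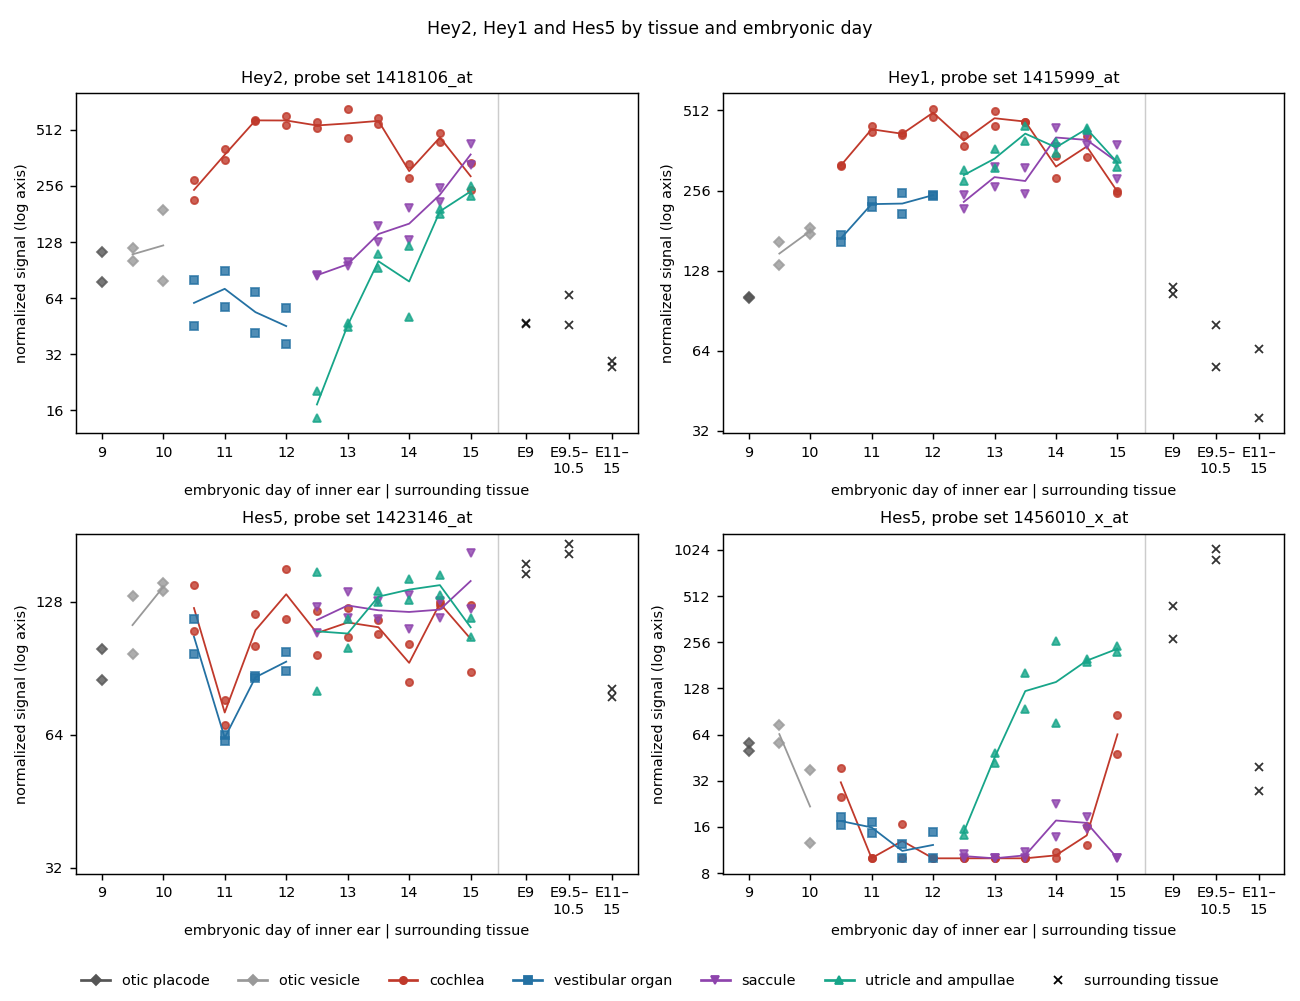
Normalized signal (log y axis) of the Hey2, Hey1 and both Hes5 probe sets against embryonic day, with surrounding tissue to the right of the grey line. Points are arrays and lines join the geometric means of the 2 arrays per stage. Hey2 in the cochlea separates from the other ear tissues and meets them at E15. Hes5 by 1456010_x_at rises in the utricle from E12.5 to E15, while 1423146_at stays between 62.0 and 173.

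Hey1, a close relative of Hey2, also had its highest level in the cochlea, at E12, and showed smaller differences between tissues. Its signals were 318 and 318 in the E10.5 cochlea and 485 and 519.6 in the E12 cochlea, against 175 and 164 and 245 and 247 in the vestibular organ. The cochlea was higher at 4 of 4 stages without overlap, by 1.85-fold, which passed the test but not the fold threshold (log2 0.89, SE 0.081, adjusted p = 3.61e-11). From E12.5 to E13.5 the cochlear arrays were above those of the utricle and of the saccule at all 3 stages. At E14 and E15 they were below both, and at E14.5 below the utricle only, with 256 and 251 in the E15 cochlea against 379.9 and 282 in the saccule and 315 and 337 in the utricle. The trend was -0.66 in the cochlea, 0.24 in the utricle and 0.60 in the saccule. None of these was called, but the cochlear and saccular trends differed (log2 -1.25, SE 0.19, adjusted p = 1.36e-05), and the cochlear and utricular trends differed by -0.89, under the fold threshold.

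Against its surroundings Hey1 separated the ear from E9.5 on. At E9 the placode had 102 and 101 and the surrounding tissue 111 and 105, a difference of -0.077 (95 percent interval -0.41 to 0.25). At E11 to E15 the 48 ear arrays ranged from 208 to 519.6, whereas the surrounding tissue measured 65.1 and 35.9. The ear was higher by 2.42-fold at E9.5 to E10.5 (log2 1.27, SE 0.13, adjusted p = 2.85e-10) and by 5.49-fold at E11 to E15 (log2 2.46, SE 0.12, adjusted p = 3.56e-20). With a pseudocount of 64 the earlier difference was 0.93, under the fold threshold. In the surrounding tissue itself Hey1 differed by -0.93 between the late mixture and E9, which was called only with a pseudocount of 1 (-1.14) and without replicate 1 of the late mixture (-1.25).

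Hes5, the target most closely tied to supporting cells and neural progenitors, divided the late ear tissues by 1 probe set. That probe set, 1456010_x_at, reached the array median on 11 arrays, all of utricle and ampullae or of surrounding tissue. It thus passed the filter only through groups where it was high, and its calls against those groups draw on the same arrays. By 1456010_x_at both cochlear arrays were at the floor of 10 at E12.5, E13 and E13.5, and the cochlea then measured 10 and 10.9 at E14, 16.2 and 12.3 at E14.5 and 86.1 and 48.0 at E15. The saccule stayed low throughout, between 10 and 22.6, with both arrays at the floor at E15. The utricle and ampullae measured 14.1 and 15.5 at E12.5, 48.8 and 41.9 at E13, 161 and 93.9 at E13.5, 76.5 and 259.6 at E14, 199 and 189.6 at E14.5 and 223 and 242 at E15. The cochlear and the saccular arrays were thus below the utricular ones at 6 of 6 stages.

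On the signal itself the cochlea was at least 1.48-fold lower than the utricle at E12.5, at least 4.52-fold lower at E13 and at least 12.3-fold lower at E13.5. At E14.5 and E15, where both cochlear arrays were above the floor, it was 13.8-fold and 3.61-fold lower. The saccule was at least 4.52-fold lower than the utricle at E13 and at least 23.2-fold lower at E15. In the fit, whose values are no bounds where a group is at the floor, the differences averaged -1.82 for cochlea against utricle (SE 0.12, adjusted p = 4.67e-16) and -2.003 for saccule against utricle (SE 0.12, adjusted p = 3.05e-17). Hes5 rose in the utricle (log2 2.94, SE 0.25, adjusted p = 4.14e-12), and by 1.85 without the E12.5 arrays. The cochlear rise (log2 1.26, SE 0.25, adjusted p = 0.000132) rested on E15: without the E15 arrays it was 0.18, and with a pseudocount of 64 it was 0.61, neither called.

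The cochlear Hes5 trend was smaller than the utricular one (log2 -1.68, SE 0.35, adjusted p = 0.00143), a difference of -0.46 and no longer called without the E12.5 arrays, and of -2.59 and still called without the E15 arrays. It exceeded the saccular one by 1.08 (SE 0.35, adjusted p = 0.0381), and this had the sign turned without the E15 arrays (-0.23). Leaving out the E13 or the E13.5 arrays (1.16 and 1.06), a pseudocount of 64 (0.54), or leaving out any 1 of 11 arrays (both of the E12.5 and E13 cochlea, replicate 1 of the E14.5 and E15 cochlea, both of the E12.5 and E15 saccule, replicate 1 of the E14.5 saccule) also ended that call, at 0.84 to 1.09 for the arrays.

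In the surrounding tissue Hes5 by the same probe set stood far above the ear up to E10.5. It measured 56.1 and 50.4 in the placode against 269.9 and 443 in surrounding tissue at E9. The vesicle had 73.9 and 56.2 at E9.5 and 37.6 and 12.6 at E10, and the cochlea and vestibular organ 38.8 and 25.2, and 16.5 and 18.5, at E10.5, against 883 and 1030.4 in the surrounding mixture. The ear was 5.24-fold lower at E9 (log2 -2.39, SE 0.29, adjusted p = 7.01e-08) and 19.4-fold lower at E9.5 to E10.5 (log2 -4.28, SE 0.23, adjusted p = 5.36e-18). At E11 to E15 the surrounding tissue had 27.3 and 39.5 and the difference did not pass the test (log2 -0.31, SE 0.21, adjusted p = 0.217). Hindbrain markers (6 genes, all above the floor in surrounding tissue) summed to 721 and 782 in the placode against 6854 and 5985 around it, and around the ear to 12541 and 12678 at E9.5 to E10.5 and 10779 and 11406 at E11 to E15. Neuronal markers (8 genes) summed to 3330.1 and 2873 at E9, 18087 and 19764 at E9.5 to E10.5 and 16529 and 15792 at E11 to E15 in surrounding tissue. Their part in the Hes5 values was not tested.

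The second Hes5 probe set did not repeat these patterns. By 1423146_at the signal was 62.0 to 173 on all 64 arrays and never at the floor, and none of the 18 comparisons was called. The ear differed from its surroundings by -0.63 at E9 and -0.42 at E9.5 to E10.5, in the same direction as by the first, and the cochlea by -0.14 from the utricle (95 percent interval -0.28 to 0.0089). The pair correlated at 0.256 over the 29 group means. The suffix _x_at of the first marks probe sets that may also read other transcripts, which was not tested.

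**Figure D4:**
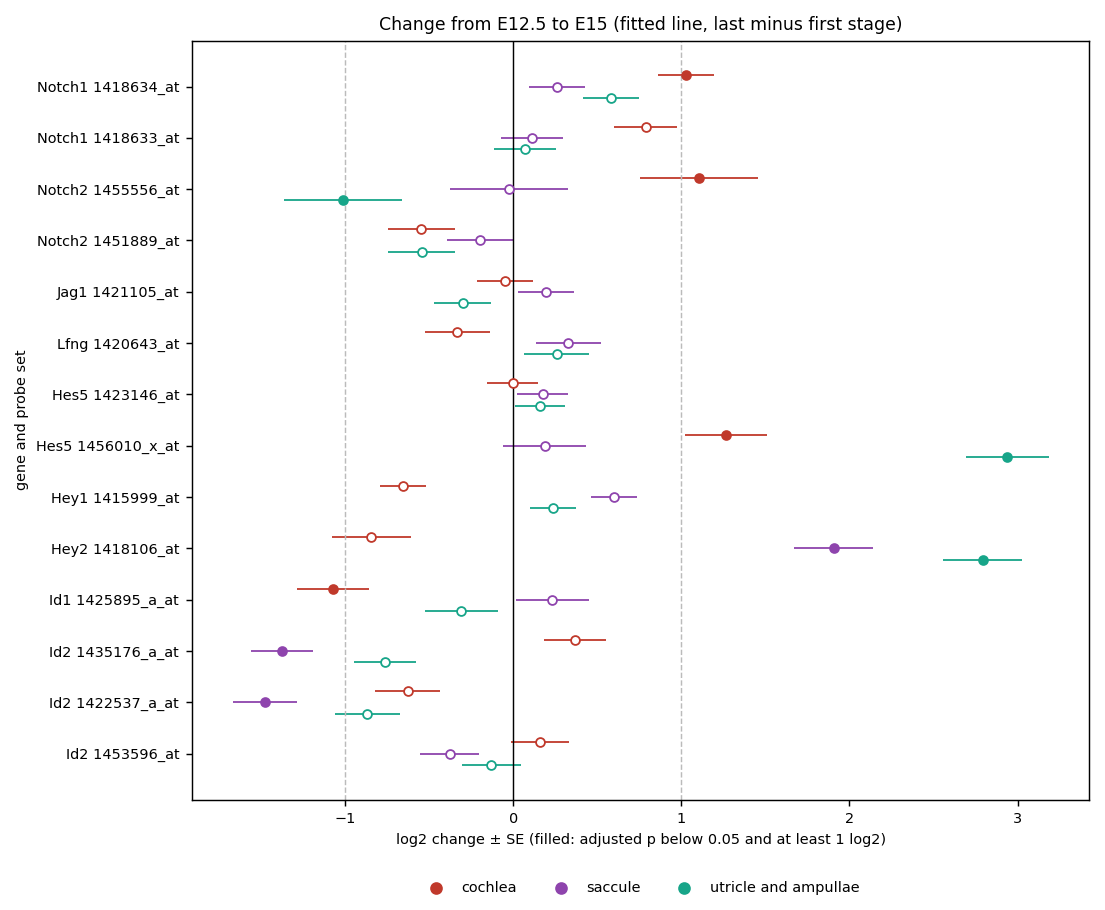
Change from E12.5 to E15 on the fitted line (x axis, log2 with standard error bars; filled points were called, dashed lines mark 1 log2) for the 14 tested probe sets in cochlea, saccule, and utricle with ampullae. Hey2 rises in saccule and utricle (1.91 and 2.79) and not in the cochlea (-0.85), and Id2 by 1435176_a_at falls in the saccule (-1.38) and not in the cochlea (0.37).

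Id1 fell in the cochlea, where its highest levels of any group stood at E10.5. Its probe set 1425895_a_at measured 2118 and 1843 at E10.5, 1609 and 1682 at E11.5, 919 and 929 at E12.5, 819 and 859 at E13.5 and 436 and 346 at E15. The trend from E10.5 to E15 was 4.26-fold down (log2 -2.09, SE 0.18, adjusted p = 1.04e-12), and -1.88 over E11 to E15 alone. From E12.5 to E15 the change was -1.07 (SE 0.22, adjusted p = 0.000202). It was no longer called without the E15 arrays (-0.54), without the E14 arrays (-0.999) or without replicate 2 of the E15 cochlea (-0.96). The saccule was already low at E12.5, 357 and 348, and measured 366 and 394 at E15, so the cochlear and saccular trends differed (log2 -1.31, SE 0.30, adjusted p = 0.00314), a difference lost without E15 (-0.80). Summed red blood cell markers (5 genes, of which Hbb-bh1 was at the floor on both E15 arrays) were 628 and 714 in the E15 cochlea against 7017 and 4294 at E10.5, and the epithelial sums are those given for Notch1. Their part in the Id1 values was not tested.

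Over E12.5 to E15 the saccular arrays (286, 361 and 478; lowest, median and highest of 12) lay below the utricular ones (208, 985 and 1164) at 5 of 6 stages and overlapped at E14, where the utricle had 208 and 670.0. The difference was 2.09-fold (log2 -1.06, SE 0.10, adjusted p = 7.33e-11). It sat close to the fold threshold and dropped under it without the E13 or E13.5 arrays (-0.90 and -0.99), without replicate 2 of the E12.5 or E14 utricle (-0.996 and -0.93) and with a pseudocount of 64 (-0.98). The cochlea exceeded the saccule by 0.89, under the threshold, or by 1.06 and called without E15. Between cochlea and vestibular organ Id1 was higher at 4 of 4 stages by 0.51, also under it.

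In surrounding tissue Id1 fell with age: 1504 and 1253 at E9, 721 and 645 at E9.5 to E10.5 and 169.8 and 218 at E11 to E15 (log2 -2.73, SE 0.26, adjusted p = 2.32e-11 for the last against the first). The placode, at 1467 and 1287, overlapped with its surroundings at E9 (log2 difference 0.00098, 95 percent interval -0.52 to 0.52). The ear was 2.01-fold higher at E9.5 to E10.5 (log2 1.01, SE 0.20, adjusted p = 0.000161) and 3.69-fold higher at E11 to E15 (log2 1.89, SE 0.18, adjusted p = 3.64e-11). The first of these calls was lost without the E10.5 arrays (0.87), with a pseudocount of 64 (0.96), and without any 1 of replicate 2 of the E9.5 vesicle, replicate 1 of the E10 vesicle, replicate 1 of the E10.5 cochlea, replicate 2 of the E10.5 vestibular organ or replicate 2 of the surrounding mixture (0.92 to 0.99).

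**Figure D5:**
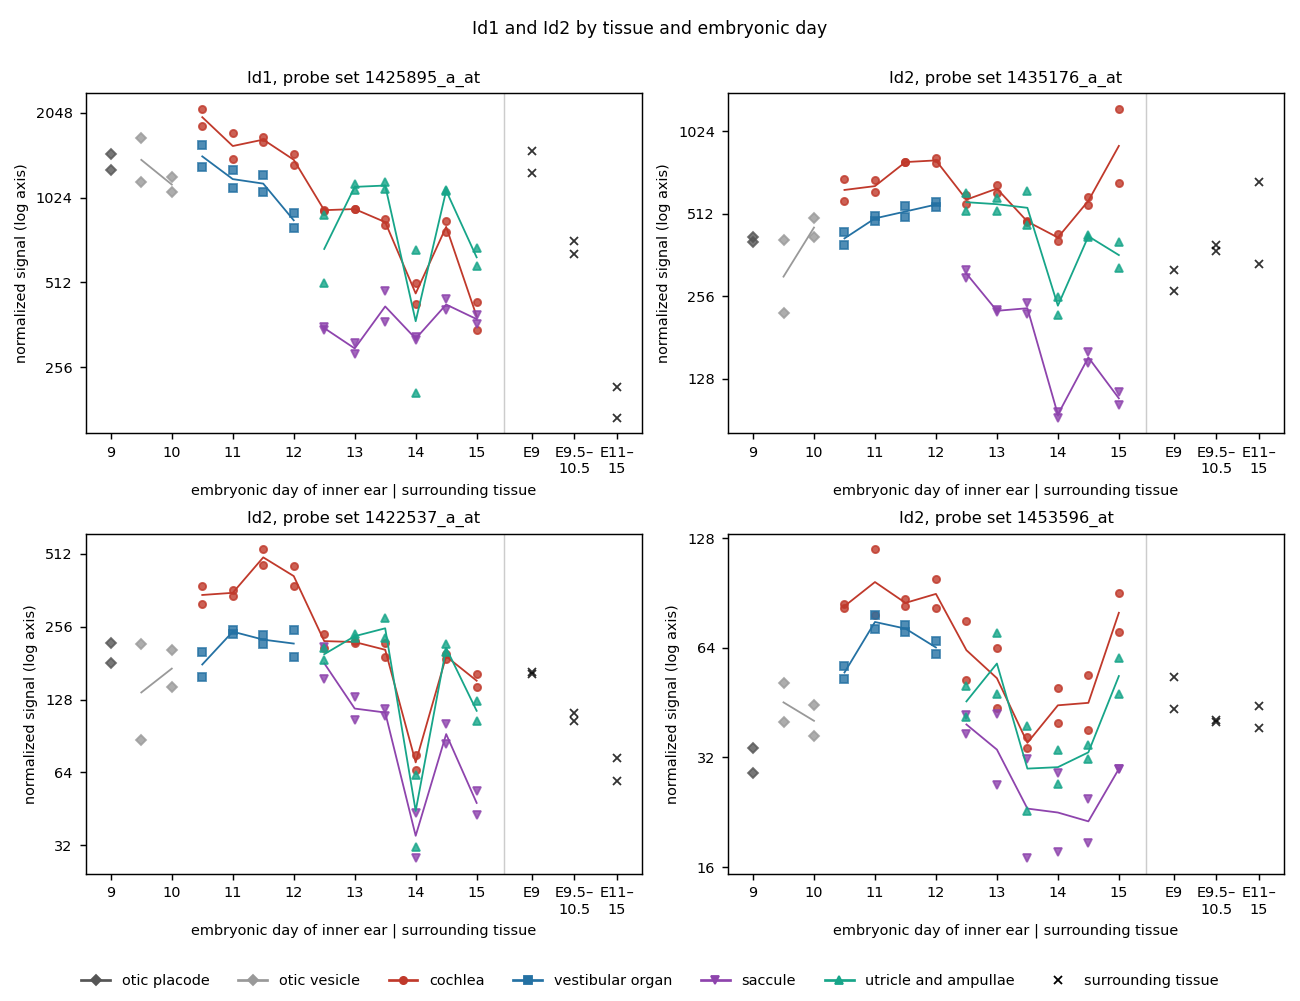
Normalized signal (log y axis) of Id1 and of the 3 Id2 probe sets against embryonic day, with surrounding tissue to the right of the grey line. Points are arrays and lines join the geometric means of the 2 arrays per stage. Id1 falls along the cochlea, to 436 and 346 at E15, the saccule lies below cochlea and utricle at every stage for Id2 1435176_a_at, and Id2 1422537_a_at dips at E14.

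Id2 was lowest in the saccule. By its brightest probe set, 1435176_a_at, the cochlea measured 598 and 556 at E12.5, 481 and 478 at E13.5, 433 and 406 at E14 and 662 and 1236 at E15. The saccule at those stages had 299 and 320.4, 243 and 221, 92.5 and 97.3, and 115 and 103. The utricle had 608 and 524, 619 and 468, 219 and 255, and 326 and 402. The saccular arrays were below those of both other tissues at 6 of 6 stages. The cochlea was 3.15-fold above the saccule (log2 1.66, SE 0.089, adjusted p = 1.38e-18) and the saccule 2.35-fold below the utricle (log2 -1.23, SE 0.089, adjusted p = 1.42e-14). The other Id2 probe sets had the same direction but stayed under the fold threshold, at 0.83 and 0.63 for cochlea against saccule and -0.73 and -0.36 for saccule against utricle. Over E12.5 to E15 hindbrain markers (6 genes) summed to 233 to 902 on the cochlear arrays. They summed to 1592 to 3159.8 on the saccular ones and 435 to 1168 on those of utricle and ampullae. Egr2, Hoxb1 and Hoxb3 were each at the floor on both arrays of some stages in each tissue, and all of them at E14 in cochlea and saccule. The part of the hindbrain markers in these differences was not tested.

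The saccular fall from E12.5 to E15 was seen by both brighter probe sets (log2 -1.38, SE 0.18, adjusted p = 1.99e-07 for 1435176_a_at; log2 -1.48, SE 0.19, adjusted p = 1.23e-07 for 1422537_a_at), and both slipped under the fold threshold without the E12.5 arrays (-0.99 and -0.95). The cochlear trend of 1435176_a_at was 0.37 and differed from the saccular one (log2 1.74, SE 0.26, adjusted p = 7.85e-06; 0.97 without the E15 arrays) and from the utricular one (log2 1.13, SE 0.26, adjusted p = 0.00413). The last call was lost without replicate 2 of the E15 cochlea (log2 0.82, adjusted p = 0.0637), the array with a signal of 1236, and without all E15 arrays (0.55). By 1422537_a_at neither difference was called (0.85 and 0.24), though that against the saccule was with a pseudocount of 1 (1.05) or without the E13 arrays (log2 1.002, adjusted p = 0.0311). The utricular trend of 1422537_a_at, -0.87, was called without the E14.5 arrays (-1.26).

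The Id2 probe sets parted in 2 other places. Along the whole cochlea 1422537_a_at fell 3.27-fold, with 377 and 317 at E10.5, 459 and 533 at E11.5 and 163 and 144 at E15 (log2 -1.71, SE 0.16, adjusted p = 1.19e-11; -1.75 over E11 to E15 alone), whereas 1435176_a_at had a trend of -0.16 and 1453596_at one of -0.75, called without E15 (-1.08). Against surrounding tissue at E11 to E15, 1422537_a_at was 2.35-fold higher in the ear (log2 1.23, SE 0.17, adjusted p = 5.76e-08), with 73.6 and 59.2 around the ear, but 1435176_a_at differed by -0.15, with 669 and 337. With a pseudocount of 64 the difference by 1422537_a_at was 0.93. In surrounding tissue 1422537_a_at fell with age (log2 -1.14, SE 0.23, adjusted p = 7.88e-05; -0.997 as deposited and -0.81 with a pseudocount of 64), while 1435176_a_at was 0.67 higher and called without replicate 2 of the late mixture (1.15). Over the 29 ear groups the 3 probe sets correlated at 0.708 to 0.84.

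The E14 arrays stood apart for 1 Id2 probe set, 1422537_a_at. In the cochlea it measured 219.6 and 192 at E13.5, 75.8 and 65.4 at E14 and 189 and 197 at E14.5. The saccule at those stages had 117 and 109.7, 43.4 and 28.3, and 101 and 83.9. The utricle had 277 and 229, 31.5 and 62.5, and 200.2 and 218. By this probe set all 3 tissues were therefore lower at E14 than at the stages to either side. The lowest group was the E14 saccule by 1435176_a_at too, but the E14.5 saccule by 1453596_at. Id1 was lower in the E13 saccule than in the E14 saccule. Leaving the E14 arrays out of every comparison ended 1 call, the late cochlear fall of Id1 given above.

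Across the 29 ear groups, whose means share tissues and litters, the members moved together only in part. Id1 and Id2 correlated at 0.649, Notch1 and Notch2 at 0.601, and Hey1 and Hey2 at 0.567, each by the probe set of highest mean, and the lowest of the 36 pairs was Lfng with Hes5 1423146_at at -0.44. The probe sets most like Hey2 over those means were 2 of Clu (r = 0.854 and 0.848), which encodes the secreted chaperone clusterin, and 1 of the mucin Muc15 (0.852). Those most like Id1 were Id3 (0.866), another Id gene, Rars (0.853) and Nsun2 (0.851). For Hey1 they were Arntl (0.918), Rpl22 (0.877) and Zdhhc2 (0.873), for Id2 Ywhaz (0.838), Flvcr2 (0.828) and Hmga2 (0.824), and for Notch1 Pold4 (0.91), Bet1l (0.902) and Slc44a2 (0.899). Notch2 was closest to Nrd1 (0.838), Pptc7 (0.829) and Sgk1 (0.792), Hes5 by 1423146_at to S100a8 (0.849), Hlf (0.814) and Ccdc114 (0.801), Jag1 to Klk1b8 (0.727), Ffar2 (0.716) and H2-K1 (0.712), and Lfng to Mrpl11 (0.793), Fank1 (0.781) and Prdx2 (0.771).

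Ordered by level, few neighbouring groups could be told apart. Neighbours in such an order are by construction the groups closest in level. The counts for all probe sets were not worked out, so those below have no background. Of the 31 pairs of neighbours, 25 overlapped for Hey2, 24 for Hey1, 21 for Id1, 23 for Hes5 1456010_x_at and Id2 1435176_a_at, 27 for Notch1 1418634_at and 30 for Notch2 1455556_at. The top 3 groups for Hey2 were the cochlea at E11.5, E12 and E13.5 and for Id1 the cochlea at E10.5, E11.5 and E11. The lowest group was the E12.5 utricle for Hey2 and the late surrounding tissue for Hey1 and Id1.

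The rest of the Notch pathway (52 genes, of which 42 were tested by 60 probe sets) was read beside them, with the share of all probe sets called given after each count. Between the E10 vesicle and the E9 placode, where no member was called, 6 of the 60 rose and none fell (5.42 percent of all), among them the corepressor Tle2 (log2 2.09, SE 0.32, adjusted p = 9.68e-06), the receptor Notch4 (1.73), Hes6 (1.49), the Notch inhibitor Numb (1.18), Dtx3 (1.19) and the target Heyl (1.08). Against surrounding tissue 1 was higher and 2 lower at E9 (6.04 percent of all), 2 and 3 at E9.5 to E10.5 (8.09 percent), and 3 and 1 at E11 to E15 (15.5 percent). Notch4, a receptor of blood vessels, was lower in the ear at E9 (log2 -2.63, SE 0.38, adjusted p = 2.61e-06) and at E9.5 to E10.5 (-2.18); endothelial markers (11 genes, none at the floor throughout a tissue) summed to 563 to 1125 on the ear arrays against 1472 to 1705 around them, and their part was not tested. At E11 to E15 Poglut1, which glycosylates Notch, Numb and the feedback inhibitor Nrarp were higher (1.51, 1.38 and 1.36) and the ligase Mib2 lower (-1.28).

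Between ear tissues none was called for cochlea against utricle, where 2.9 percent of all probe sets were called. Of the 60, 26 had an unadjusted limma p under 0.05. The share of all probe sets at that looser threshold was not worked out, so the 26 have no background. The cochlea had 1 lower against the vestibular organ (Tle2, -1.24; 1.31 percent) and 2 lower against the saccule (Mfng -1.23, Dlk2 -1.05; 3.78 percent). The saccule had 1 higher and 1 lower against the utricle (Dner 1.24, Tle2 -1.23; 2.53 percent). Heyl, the third Hey gene, rose in the saccule (log2 1.52, SE 0.16, adjusted p = 6.5e-10) and the utricle (log2 1.58, SE 0.16, adjusted p = 3.62e-10), and its cochlear trend was lower than either (-1.48 and -1.54), as was that of Hey2. In the utricle 5 of the 60 rose and none fell (7.59 percent of all), in the saccule 5 rose and 1 fell (7.08 percent), and in the late cochlea 1 rose and none fell (the protease Adam10, 1.04; 6.17 percent). From E10.5 to E15 of the cochlea 5 rose and 1 fell (15.5 percent), led by Tle2 (2.29), 2 probe sets of the gamma-secretase subunit Aph1a (1.56 and 1.33) and Dtx3 (1.55), while Poglut1 fell by 1.43. The median change of the 60 lay between -0.19 and 0.17 over the 18 comparisons, against -0.033 to 0.021 over all probe sets.

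Partners and upstream signals of the Id genes (20 genes, 17 tested by 31 probe sets) were read beside Id1 and Id2. Against the utricle 7 of 31 were lower in the saccule and none higher (2.53 percent of all), among them the ligands Bmp4 (log2 -2.25, SE 0.09, adjusted p = 7.15e-23) and Bmp2 (-1.98), the BMP antagonist Bambi (-1.86) and all 3 probe sets of Id4 (-1.78, -1.70 and -1.60). In the cochlea against the saccule 2 were higher (3.78 percent), Bmp4 (log2 3.00, SE 0.09, adjusted p = 1.02e-26) and Id3 (log2 1.16, SE 0.079, adjusted p = 1.73e-15). Against the utricle the cochlea had 5 lower (2.9 percent), led by Bambi (-2.44) and Bmp2 (-2.02). Id4 rose in the saccule by 3.54, 3.34 and 3.23 on its 3 probe sets, the opposite direction to Id2 there, and its cochlear trend was lower by 3.98, 3.51 and 3.04 log2. Around the early ear Id4 was higher in the placode than in surrounding tissue by 2.91, 1.70 and 1.65. Of the 31 probe sets, 5 were higher and none lower in the ear at E9 (6.04 percent of all), 2 and none at E9.5 to E10.5 (8.09 percent), and 3 and 4 at E11 to E15 (15.5 percent). Along the cochlea from E10.5 to E15 1 rose and 1 fell (15.5 percent). From E12.5 to E15 4 rose in the saccule (7.08 percent) and 3 in the utricle (7.59 percent), with none falling in either. The median change of the 31 lay between -0.34 and 0.32 over the 18 comparisons.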

How the data were processed

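The deposited values were Affymetrix signal intensities on a linear scale, made by the authors with MAS5, per the submitters' processing notes; its version and scaling target are not stated there. The lowest deposited intensity was exactly 10 on every array. Probe sets were named through GEO's platform annotation: 20380 of 22626 had 1 symbol, 691 had several and 1555 had none, and only the first kind were used. The 10 genes and the other lists were chosen with earlier results of these data known.

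Trimmed means of the 64 arrays ranged over 1.58-fold, so the arrays were quantile normalized. Probe sets at or above their array's median on at least 2 arrays were kept (14014, from 9352 genes). Values were taken as log2(signal + 16) and fitted in limma 3.58.1 (R 4.3.3) with 1 coefficient per group, 32 residual degrees of freedom, eBayes with an intensity trend, and Benjamini-Hochberg adjustment over all 14014. Precision is limited by 2 arrays per group. Stage means had equal weights. The fit was tested on simulated data. Intervals cover 95 percent.

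Named besides the 10 genes are, per comparison, up to 6 called probe sets of each list with the largest change, and the 3 probe sets most correlated with each gene's brightest one over the 29 ear groups; Atoh1 was named after its values were seen. Arrays of 1 stage with the same replicate number deviated together (correlation over 0.1) in all 6 pairs of cochlea with utricle (0.248 to 0.489), which counts as pairing, and in 18 of all 22 tissue pairs (range -0.493 to 0.573); the labels do not say what the number marks. Alternatives were other pseudocounts (1 and 64), a stricter filter (16 arrays) and none, the values as deposited, 1 probe set per gene, array weights, only the groups compared, a replicate block, leaving out each array, and leaving out each stage, of which all but E11 and E14 were added after seeing the data.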

Additional observations from a re-analysis of the deposited data

Results flagged for a closer look

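In 10 cases the change over time differed between tissues by the test of the difference itself, each a called difference of 2 fitted trends in log2. For cochlea minus vestibular organ from E10.5 to E12 it was Hey2, at 1.629. For cochlea minus saccule from E12.5 to E15 it was Hes5 1456010_x_at at 1.079, Hey1 at -1.255, Hey2 at -2.752, Id1 at -1.307 and Id2 1435176_a_at at 1.744. For cochlea minus utricle and ampullae at the same stages it was Notch2 1455556_at at 2.117, Hes5 1456010_x_at at -1.675, Hey2 at -3.64 and Id2 1435176_a_at at 1.131. The comparisons share the cochlear arrays. The late differences of Hey1 and Hey2 kept their calls under every alternative run; each of the others lost its call under at least 1.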

How the results depend on the processing

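Of 48 calls, 27 were kept under every alternative in which their probe set was tested. Hes5 1456010_x_at was not tested with the filter of 16 arrays or with 1 probe set per gene. Id2 1422537_a_at was not tested with 1 probe set per gene. Their calls among the 27 were thus not put to those alternatives. Of 7440 alternative values, 83 lost a call, 28 gained one and 2 called values turned sign: Notch2 1455556_at in the utricle (0.0061 without E12.5) and the Hes5 1456010_x_at trend difference of cochlea and saccule (-0.23 without E15). A replicate block by stage and number (consensus correlation 0.243) changed no call. Counts of called probe sets moved as follows. With a pseudocount of 1 there was 1 call for E10 vesicle against placode and 2 for the early cochlear trend. With a pseudocount of 64 there was 1 at E9, 1 at E9.5 to E10.5 and 0 for the late cochlear trend. In the original setting 9 of 14 had an unadjusted limma p under 0.05 in that trend, a share not worked out for all probe sets. At E9 there was 1 without a filter, with a filter of 16 arrays, with 1 probe set per gene and with only the groups compared. For cochlea against utricle there was 1 with the filter of 16 arrays and with 1 probe set per gene, which also gave 2 for surrounding tissue over time. With that filter and with 1 probe set per gene, here and at E9, the lost calls were of probe sets not tested there. The values as deposited gave 2 for cochlea against vestibular organ, and smaller shifts to 3 at E9, 4 at E9.5 to E10.5, 5 for the cochlear trend, 2 for the utricular trend and 3 for surrounding tissue over time. Without E10.5 the early cochlear trend and its difference from the vestibular trend had 0, as had the difference without E12. Without E12.5 there were 2 for the late cochlear trend, 1 for the saccular trend and 2 for the difference of cochlear and utricular trends. Without E15 these differences had 2 each against utricle and saccule, and the late cochlear trend 0. Leaving out single arrays gave 1 to 3 calls at E9, 2 to 5 at E9.5 to E10.5, 0 to 1 for vesicle against placode, 3 to 4 for saccule against utricle, 2 to 4 for the late cochlear trend, 2 to 3 for the utricular trend, 0 to 1, 2 to 5 and 4 to 5 for the trend differences against vestibular organ, utricle and saccule, and 4 to 5 for surrounding tissue over time. The causes of the other shifts were not tested. Signals mostly under the array median limit Jag1 and Lfng, and signals near the floor limit Hes1 and 1 Hes5 probe set. The surrounding tissue has only 2 arrays per window.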
